A study of Mus musculus with 104 samples.

Results

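The globus pallidus of the adult mouse brain was compared with its neighbour, the caudate putamen, on whole-transcriptome microarrays. The members are the 2 arrays labelled globus pallidus and the 4 arrays labelled caudate putamen, of which 2 are of its lateral and 2 of its medial part, and they were chosen by title. They are 6 of the 104 arrays of an atlas that holds 2 arrays for each of 52 regions and was deposited for the preoptic area and basal forebrain. All mice were males of the Balb/c strain, 7 to 8 weeks old, and the labels give no genotype or drug. They were bought at 5 weeks and adapted for 2 weeks to 12 h of light and 12 h of darkness. Tissue was then taken every 4 h over 1 day, either in that cycle or in constant darkness, and the labels do not say which applies to an array. Each region was punched on both sides from frozen slices 0.5 mm thick with a needle of gauge 0.5 mm, and its RNA was pooled over the time points before it was labelled. Pooling means that an array holds no time of day and no single animal, and a punch holds every cell type that lay under the needle. The labels name neither a segment of the globus pallidus nor separate animals for the 2 arrays of a region, so the p-values below measure the spread between arrays, which may be technical.

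The caudate putamen is the input station of the basal ganglia. Nearly all of its neurons are GABAergic medium spiny neurons, which fire sparsely and fall into a direct pathway (dopamine receptor D1, substance P, dynorphin) and an indirect pathway (dopamine receptor D2, enkephalin). The globus pallidus is the next GABAergic relay. Its neurons are few, large and tonically active at high rates, receive the axons of the spiny neurons, and are crossed by the myelinated bundles of the internal capsule. Most are prototypic cells that arise from Nkx2-1 and Lhx6 precursors and many hold parvalbumin. A smaller arkypallidal class with Npas1, Foxp2 and enkephalin projects back to the striatum, and cholinergic neurons of the basal forebrain lie within and along the border of the nucleus.

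Levels are the deposited log2 values, so a difference of 1 is 2-fold. A difference below is globus pallidus minus the mean of the lateral and medial parts with equal weight, with its standard error (SE) from a limma fit over all 104 arrays. A gene is called at an adjusted p under 0.05 (Benjamini-Hochberg over all 18193 genes) and at least 2-fold, and only called genes are said to be higher or lower without further words. By this rule 391 genes (2.15%) were higher and 322 (1.77%) were lower in the globus pallidus. At any fold 2879 genes (15.8%) were higher and 2634 (14.5%) lower, and the median difference over all genes was 0.01. These shares over all genes are the background for each count of list members below. The 2 globus pallidus arrays correlated at r = 0.9963 over genes, the pairs of lateral and of medial arrays at 0.9938 and 0.9921, and globus pallidus with caudate putamen arrays at 0.9656 to 0.9774. Either part of the caudate putamen had the highest mean of the 52 regions for the spiny neuron genes Ppp1r1b, Rgs9, Drd2 and Penk. Other spiny neuron genes peaked elsewhere, such as Drd1, Tac1 and Gnal in the olfactory tubercle, Actn2 in the retina and Hpca in CA2 / CA3. The globus pallidus arrays held Pvalb, Lhx6, Npas1 and Lhx8 above all caudate putamen arrays, with Nkx2-1 near the level of the other regions. Of the other pallidal genes Kcng4 differed by 0.02, and Foxp2, Penk and Meis2 were lower. The preoptic area had higher means than the globus pallidus for Lhx6 (9.56 against 9.30) and Lhx8 (9.17 against 8.89). The control probe sets for 18S ribosomal RNA read 9.56 and 10.11 on the globus pallidus arrays and 7.35 to 7.82 on the caudate putamen arrays, where the median region of the atlas lies at 7.82. The log2 ratio of the 3′ to the 5′ actin control was 0.872 and 0.922 against 0.444 to 0.668. With the 18S level as a covariate, which leaves out the 2 preoptic area arrays and was added after the data were seen, 346 genes were higher and 350 lower. In bulk tissue, fewer cells of a type and less RNA per cell cannot be told apart.

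The largest differences towards the globus pallidus were those of Kcnc2, a voltage-gated potassium channel of the Kv3 family that lets neurons fire fast, and of Itih3, Etnppl and Pvalb, which encodes the calcium buffer parvalbumin. Kcnc2 measured 10.48 and 10.49 on the globus pallidus arrays, 5.94 and 6.62 on the lateral and 6.28 and 6.14 on the medial caudate putamen arrays. The groups lay far apart, and the difference was 4.24 ± 0.19 (SE), or 18.9-fold, at adjusted p = 2.95e-27 in limma. Over the atlas the lowest region mean of Kcnc2 was 5.55 and the median of the other 49 regions 9.85, so the caudate putamen lay near the bottom, and the globus pallidus ranked 9 of 52. Pvalb measured 11.47 and 11.56 against 8.62 and 8.59 laterally and 7.90 and 7.96 medially. It was 9.46-fold higher (3.24 ± 0.17, adjusted p = 1.79e-23), and the lateral part stood above the medial part. Vamp1, a synaptobrevin of synaptic vesicles, was 5.60-fold higher (2.49 ± 0.10), and Nefh, the heavy neurofilament chain, was 5.59-fold higher (2.48 ± 0.15).

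The 14 largest differences towards the globus pallidus included 2 members of the astrocyte list. Agt, which encodes angiotensinogen, measured 11.18 and 11.22 in the globus pallidus and 8.04 to 8.50 in the caudate putamen (3.02 ± 0.15). Slc6a11, the GABA transporter GAT-3, measured 11.44 and 11.34 against 8.22 to 8.81 (2.87 ± 0.20), although its second probe set differed by 0.20. Etnppl, an ethanolamine phosphate lyase also known from astrocytes, differed by 3.62 ± 0.14 on one probe set and 1.71 on the other, and the globus pallidus ranked 3 of 52 for it. Slc25a18, a mitochondrial glutamate carrier, was 6.33-fold higher (2.66 ± 0.13). The other members of this group were Itih3, which encodes a hyaluronan-binding serum protein (3.69 ± 0.14), Plcxd2 (2.76 ± 0.15), Tmem255a (2.66 ± 0.20), Btbd11 (2.58 ± 0.12), Adarb2 (2.54 ± 0.15) and Tac2, the precursor of neurokinin B (2.41 ± 0.22). Adarb2 rests on 1 of 3 probe sets, which ranged from 0.22 to 2.54. On all 14 genes both globus pallidus arrays lay above all 4 caudate putamen arrays, which was a condition for naming them and was met by 21.1% of all genes.

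**Figure D1:**
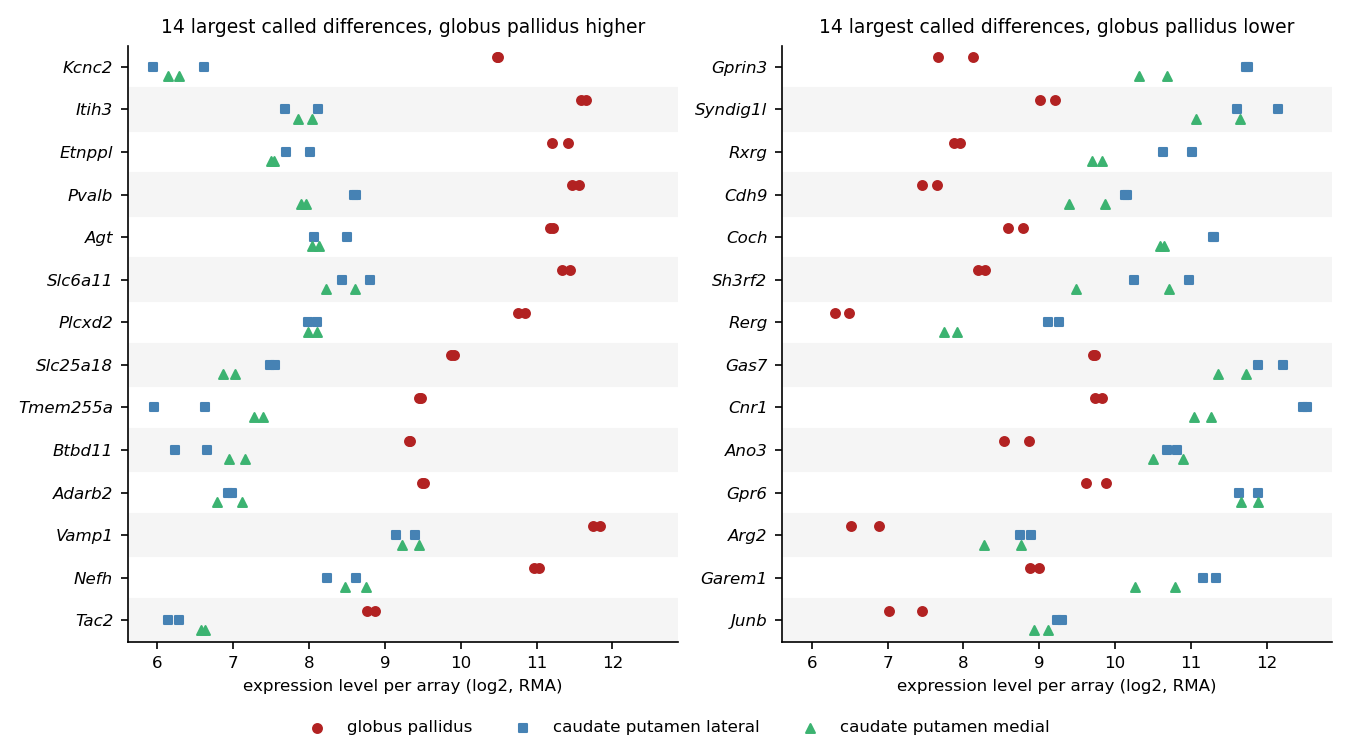
Expression level (log2, horizontal axis) of the 14 genes that differed most in either direction, with 1 point per array. Red circles are globus pallidus, blue squares lateral and green triangles medial caudate putamen. For Kcnc2 the globus pallidus arrays lie at 10.48 and 10.49 and the others between 5.94 and 6.62, and for Gprin3, Rxrg, Rerg and Cnr1 the medial arrays lie between globus pallidus and the lateral arrays.

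The known neuron classes of the globus pallidus were seen to different degrees. Among 5 measured genes of prototypic neurons 2 were higher, none was lower, and the median difference was 0.80. Besides Pvalb this was Lhx6, a homeobox factor of neurons from the medial ganglionic eminence, with 9.33 and 9.27 against 7.40 to 8.06 (1.66 ± 0.17, adjusted p = 4.63e-12). Only the preoptic area had a higher mean for Lhx6 among the 52 regions. Sox6, a factor of the same lineage, was above the caudate putamen on both arrays but under 2-fold (0.80 ± 0.09), with other probe sets up to 1.70. Nkx2-1, which specifies these precursors, measured 6.80 and 6.96 against 6.64 to 6.77, with an adjusted p of 0.217, and Kcng4, a modulatory potassium channel subunit, differed by 0.02. All values of Nkx2-1 and Kcng4 lie below the median of all values on the arrays (8.1). A low level there cannot be told from background.

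Of the 4 arkypallidal genes, Npas1, a helix-loop-helix factor, was higher (7.69 and 7.70 against 6.32 to 6.64, 1.18 ± 0.12), and the globus pallidus ranked 3 of 52. All these values of Npas1 lie below the median of all values on the arrays (8.1), where a low level cannot be told from background. The other 3 were lower: Foxp2 (-1.19 ± 0.22), Penk, the enkephalin precursor (-1.17 ± 0.23), and Meis2 (-1.05 ± 0.17). All 3 are also strongly expressed by spiny neurons, so that a bulk comparison with the striatum cannot tell the classes apart. The list median was -1.11. Foxp2 was no longer called without globus pallidus replicate 1 (-0.99), nor Meis2 without caudate putamen lateral replicate 1 (-0.98) or against the medial part alone (-0.95). The 6 probe sets of Foxp2 ranged from -1.37 to 0.03, and their mean was not called (-0.61).

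Among genes of basal forebrain cholinergic neurons, a pair of developmental factors was higher, and no transmitter gene was called in the fit to all arrays. Of 9 measured genes 2 were higher and 1 was lower, with a median of 0.55. Lhx8, a LIM-homeobox factor required for cholinergic fate, measured 9.13 and 8.65 in the globus pallidus, 6.55 and 6.61 laterally and 7.57 and 7.28 medially (1.89 ± 0.16). Gbx1, another homeobox factor, measured 8.47 and 8.26 against 7.05 to 7.14 (1.27 ± 0.09, adjusted p = 3.24e-18). The mean of Gbx1 was the highest of the 52 regions. Chat, the enzyme that makes acetylcholine, measured 7.88 and 7.76 against 7.62 to 8.14, and the difference was -0.01 ± 0.12. The vesicular transporter Slc18a3 measured 7.91 on one globus pallidus array and 6.90 on the other, so that its difference of 0.55 came from replicate 1 and was 0.04 without it. Ngfr, the p75 neurotrophin receptor of these cells, likewise measured 8.88 and 8.25 (0.76 ± 0.12). All values of Slc18a3, and those of Chat except 8.14, lie below the median of all values (8.1). A low level there cannot be told from background. Without globus pallidus replicate 2 the count rose to 5 of 9 higher, with Slc18a3 (1.05), Ngfr (1.08) and the acetylcholinesterase Ache (1.05, and 0.89 over all arrays) called as well. Isl1, which the list shares with direct-pathway neurons, was lower (-1.01 ± 0.22). The call was lost without globus pallidus replicate 1 (-0.83), without lateral replicate 2 (-0.99) or without medial replicate 1 (-0.98). It was also lost against the lateral part alone (-0.88) and on the mean of its probe sets (-0.91).

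Both structures are GABAergic, and most of the transmitter's own genes differed by under 2-fold. Gad1, the main GABA-synthesising enzyme, measured 12.72 and 12.90 in the globus pallidus and 12.72 to 12.85 in the caudate putamen (0.05 ± 0.25, adjusted p = 0.924). The vesicular transporter Slc32a1 differed by 0.09 ± 0.24, Gad2 by 0.50 ± 0.20 and the GABA transaminase Abat by 0.38 ± 0.12. Of the 6 measured genes of this list the astrocytic transporter Slc6a11 alone was called. At any fold 4 of the 6 were higher, against 15.8% of all genes, and none was lower.

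The 22 measured genes shared by spiny neurons stood below the caudate putamen in the globus pallidus, yet above the median of the other regions. All 22 were lower at adjusted p under 0.05, against 14.5% of all genes, and 14 of them by 2-fold or more, against 1.77%. The median was -1.33, with levels of 28.3% to 68.0% of the caudate putamen. On all 22 both globus pallidus arrays lay below all 4 caudate putamen arrays, against 17.7% of all genes. The phosphatase inhibitor Ppp1r1b (DARPP-32), a target of dopamine signalling, measured 11.78 and 11.79 in the globus pallidus, 13.27 and 13.32 laterally and 12.96 and 13.16 medially (-1.39 ± 0.15). Rgs9, a regulator of G-protein signalling in the striatum, measured 11.25 and 11.41 against 12.77 to 13.09 (-1.53 ± 0.09). The adenylyl cyclase Adcy5 (-1.19 ± 0.09), the G-protein subunit Gng7 (-1.39 ± 0.13), the phosphodiesterase Pde1b (-1.26 ± 0.12) and the phosphatase Ptpn5 (-1.49 ± 0.16) of the same signalling chain were lower as well. Adcy5 lost its call when its 4 probe sets were averaged (-0.56).

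In the atlas the globus pallidus ranked 4 of 52 for 10 of the 22 and between 4 and 8 for 19. It was above the median of the other 49 regions for all 22, by a median of 1.71. For Ppp1r1b the median of the other regions was 8.61, so the globus pallidus lay 3.18 above it and 1.39 below the caudate putamen. For Arpp21, a phosphoprotein of spiny neurons, it lay 4.24 above the other regions and 0.56 below the caudate putamen. The source of these transcripts within the punch was not tested.

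**Figure D2:**
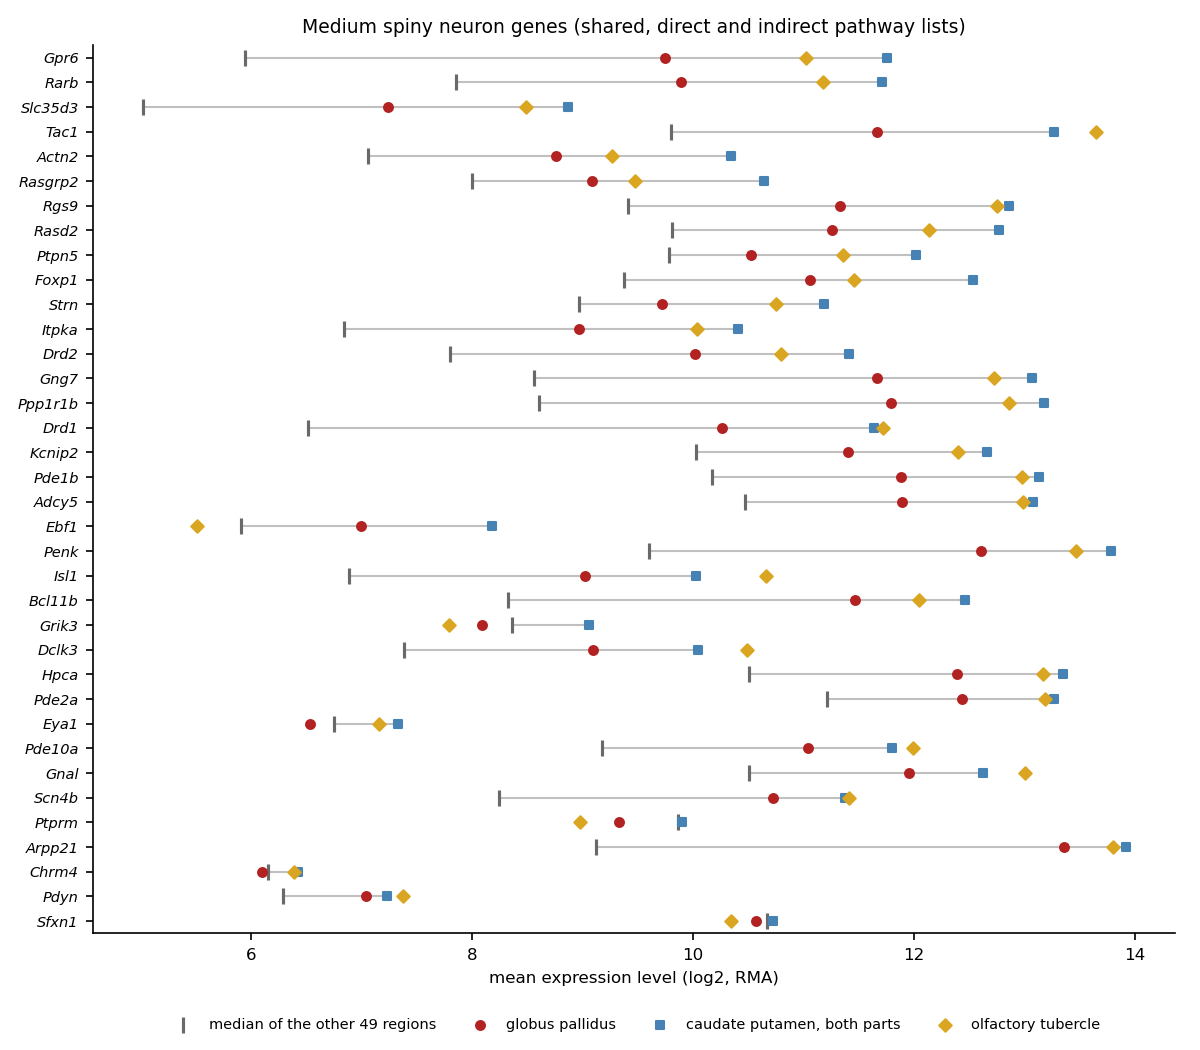
Mean level (log2, horizontal axis) of the measured genes of the 3 spiny neuron lists, sorted by the difference between globus pallidus and caudate putamen. Red circles are globus pallidus, blue squares the caudate putamen, orange diamonds the olfactory tubercle and grey ticks the median of the other 49 regions. For the 22 shared genes the red point lies between the grey tick and the blue square.

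Genes of both output pathways were lower. Of 9 direct-pathway genes 5 were lower (median -1.01) and of 5 indirect-pathway genes 3 (median -1.17), with none higher in either list. The dopamine receptor Drd1 measured 10.06 and 10.47 against 11.53 to 11.71 (-1.38 ± 0.20), and Drd2 measured 10.08 and 9.96 against 11.33 to 11.56 (-1.39 ± 0.17). These 2 levels were 38.5% and 38.1% of those in the caudate putamen. The substance P precursor Tac1 measured 11.51 and 11.83 against 13.21 to 13.43 (-1.60 ± 0.28), though its second probe set differed by 0.04 and the mean of both was not called (-0.78). Penk measured 12.60 and 12.62 against 13.65 to 13.89. Slc35d3, a transporter that traffics the D1 receptor, was lower (-1.62 ± 0.17), and so was the factor Ebf1 (-1.18 ± 0.25), whose call was lost without globus pallidus replicate 1 (-0.92) or medial replicate 1 (-0.85), against the medial part alone (-0.92) and on the mean of its probe sets (-0.68). Pdyn, the dynorphin precursor, measured 7.02 and 7.07 against 6.65 to 7.52 and was not called (-0.19 ± 0.13). All values of Pdyn lie below the median of all values (8.1).

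Gpr6, an orphan receptor of indirect-pathway neurons that raises cyclic AMP without a known ligand, had the largest difference of the pathway genes. It measured 9.62 and 9.88 against 11.63 to 11.88 and was 4.04-fold lower (-2.01 ± 0.23, adjusted p = 4.32e-11), with -2.01 against the lateral and -2.02 against the medial part. Its mean of 9.75 was still 3.80 above the median of the other regions, and the globus pallidus ranked 4 of 52. Its promoter is shown because spiny neuron transcription responds to cyclic AMP, and it holds the consensus cyclic AMP response element (CRE). The sequence is from RefSeq on GRCm38.p6, chr10:41072241-41072540 on the minus strand, from 250 bases before to 50 after the transcription start, with the CRE in capitals, 78 bases before the start:
Gpr6: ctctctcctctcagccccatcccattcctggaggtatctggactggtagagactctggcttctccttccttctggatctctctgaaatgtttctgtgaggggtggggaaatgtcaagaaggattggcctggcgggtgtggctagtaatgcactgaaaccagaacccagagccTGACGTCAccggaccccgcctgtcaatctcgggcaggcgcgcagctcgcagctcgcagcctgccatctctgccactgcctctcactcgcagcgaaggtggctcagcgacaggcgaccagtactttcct
The motif searched was TGACGTCA, which reads the same on both strands, and it stood in 588 of 32851 such promoters (1.79%), or in 549 of 27025 genes (2.03%). Among the 272 list members with a promoter sequence 10 held it.

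The largest differences towards the caudate putamen were those of Gprin3, a G-protein-binding protein of neurites, Syndig1l, a striatal membrane protein, and Rxrg, the retinoid X receptor gamma. Gprin3 measured 8.12 and 7.66 in the globus pallidus, 11.73 and 11.75 laterally and 10.31 and 10.69 medially (-3.23 ± 0.25, 9.39-fold lower), with a second probe set at -1.59. Syndig1l measured 9.01 and 9.21 against 11.07 to 12.15 (-2.51 ± 0.12). Rxrg measured 7.87 and 7.95 against 11.02 and 10.63 laterally and 9.83 and 9.70 medially (-2.38 ± 0.11, adjusted p = 8.32e-27). The globus pallidus was close to the rest of the brain for Rxrg, at rank 15 and with a median of 7.30 over the other regions, and far above it for Syndig1l, at rank 4 and with a median of 7.47.

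The cannabinoid receptor Cnr1 measured 9.74 and 9.83 in the globus pallidus, 12.53 and 12.48 laterally and 11.27 and 11.04 medially (-2.04 ± 0.21), and in the globus pallidus it stood at the level of the other regions (9.90). Cnr1 is made in striatal cell bodies and its protein is carried to their terminals in the globus pallidus. Lower too were the cadherin Cdh9 (-2.34 ± 0.18), the matrix protein Coch (-2.27 ± 0.20), the ubiquitin ligase Sh3rf2 (-2.12 ± 0.14), the Ras-like protein Rerg (-2.11 ± 0.17), the anoctamin Ano3 (-2.02 ± 0.14), the arginase Arg2 (-1.96 ± 0.14), the adaptor Garem1 (-1.95 ± 0.15) and the AP-1 factor Junb (-1.90 ± 0.17). Gas7 was lower on the chosen probe set (-2.08 ± 0.26), but its 5 probe sets ranged from -2.08 to -0.05 and their mean was not called (-0.84). The other probe set of Garem1 differed by -0.26.

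Rarb, the retinoic acid receptor beta, which binds DNA in a pair with a retinoid X receptor, measured 9.63 and 10.16 against 11.57 to 11.92 (-1.82 ± 0.12, adjusted p = 3.24e-19). Its globus pallidus mean was 28.3% of the caudate putamen and the rank was 4 of 52. The Rarb promoter is shown because it holds the retinoic acid response element by which the gene answers to retinoid receptors, a direct repeat with a spacing of 5 bases (DR5). The RefSeq sequence on GRCm38.p6, chr14:16575427-16575726 on the minus strand, has the DR5 in capitals, beginning 53 bases before the start:
Rarb: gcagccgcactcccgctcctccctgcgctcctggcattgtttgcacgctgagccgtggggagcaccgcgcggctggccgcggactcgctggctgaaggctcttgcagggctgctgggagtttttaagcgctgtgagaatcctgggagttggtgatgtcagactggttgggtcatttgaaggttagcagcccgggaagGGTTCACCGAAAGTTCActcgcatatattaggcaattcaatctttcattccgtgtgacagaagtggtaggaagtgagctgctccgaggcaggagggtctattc
A DR5 stood on either strand of 32 of 32851 promoters (0.0974%), or 31 of 27025 genes (0.115%), and Rarb was the only one of the 272 list members with a promoter sequence that had it. The presence of these letters says nothing of receptor binding in these samples.

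Of 33 measured factors of the subpallium, the embryonic territory of both structures, 5 were higher and 8 lower, with a median of 0.00. The higher ones were Lhx8, Lhx6, Npas3 (1.62 ± 0.16), Gbx1 and Npas1. Npas3 measured 9.31 and 9.32 in the globus pallidus, but its caudate putamen arrays spread from 7.00 to 8.29 with replicate 1 below replicate 2 in both parts, and its 4 probe sets ranged from 0.36 to 1.62. The lower ones were Rxrg, Rarb, Foxp1 (-1.48 ± 0.12), Zfhx4 (-1.26 ± 0.29), Foxp2, Ebf1, Meis2 and Isl1, of which Zfhx4 was not called on the mean of its probe sets (-0.95). Bcl11b, which drives spiny neuron differentiation, measured 11.37 and 11.57 against 12.31 to 12.55 and stayed just under 2-fold (-0.99 ± 0.16), with a mean of -1.16 over its probe sets that was called. The Dlx factors of GABAergic neurons differed in sign: Dlx1 by 0.98 ± 0.16, Dlx5 by -0.65 ± 0.12 and Dlx6 by -0.62 ± 0.20, none of them called.

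Potassium channel genes differed in both directions. Of 20 measured channels linked to fast firing 4 were higher and 2 lower, with a median of 0.02, and of 17 channels typical of striatal or other neurons 2 were higher and 4 lower, with a median of -0.41. Alongside Kcnc2, its relative Kcnc1 (Kv3.1) measured 11.14 and 11.09 against 9.84 to 10.22 (1.15 ± 0.13), the auxiliary subunit Kcnab3 measured 9.36 and 9.21 against 7.92 to 8.23 (1.21 ± 0.13), and Kcna6 measured 9.95 and 10.00 against 8.55 to 9.19 (1.10 ± 0.11). The 4 probe sets of Kcnc1 ranged from -0.68 to 2.20 with a mean of 0.69 that was not called. Kcna6 was not called on the mean of its probe sets (0.55) or against the medial part alone (0.82), and neither Kcnc1 (0.97) nor Kcna6 (0.95) was called with the 18S covariate. Scn1a, the sodium channel of fast-spiking neurons, was above all caudate putamen arrays but not called (0.93 ± 0.13), while the mean of its probe sets was (1.02). The sodium channel Scn2a was lower, with 10.55 and 10.61 against 11.60 to 11.71 (-1.09 ± 0.16), but the mean of its probe sets was not called (-0.95).

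The lower channels include ones known to shape the resting and subthreshold behaviour of neurons. Kcnk2, a background (leak) channel, measured 10.08 and 10.10 against 12.18 and 11.94 laterally and 11.43 and 11.47 medially (-1.67 ± 0.15). Kcnab1, an auxiliary subunit, measured 11.18 and 11.52 against 12.74 to 12.94 (-1.51 ± 0.14), the opposite direction to Kcnab3. The inward rectifier Kcnj4 measured 7.37 and 7.19 against 8.58 to 8.78 (-1.39 ± 0.12). The A-type channel Kcnd2 (-1.06 ± 0.14) and its partner Kcnip2 (-1.26 ± 0.14) were lower, while their relatives Kcnd3 (1.32 ± 0.13) and Kcnip1 (1.10 ± 0.14) were higher. Kcnd2, Kcnd3 and Kcnip1 were not called on the mean of their probe sets (-0.50, 0.59 and 0.45), Kcnd2 and Kcnip1 were not called without globus pallidus replicate 1 (-0.96 and 0.98), and Kcnip1 was not called without lateral replicate 1 (0.99).

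**Figure D3:**
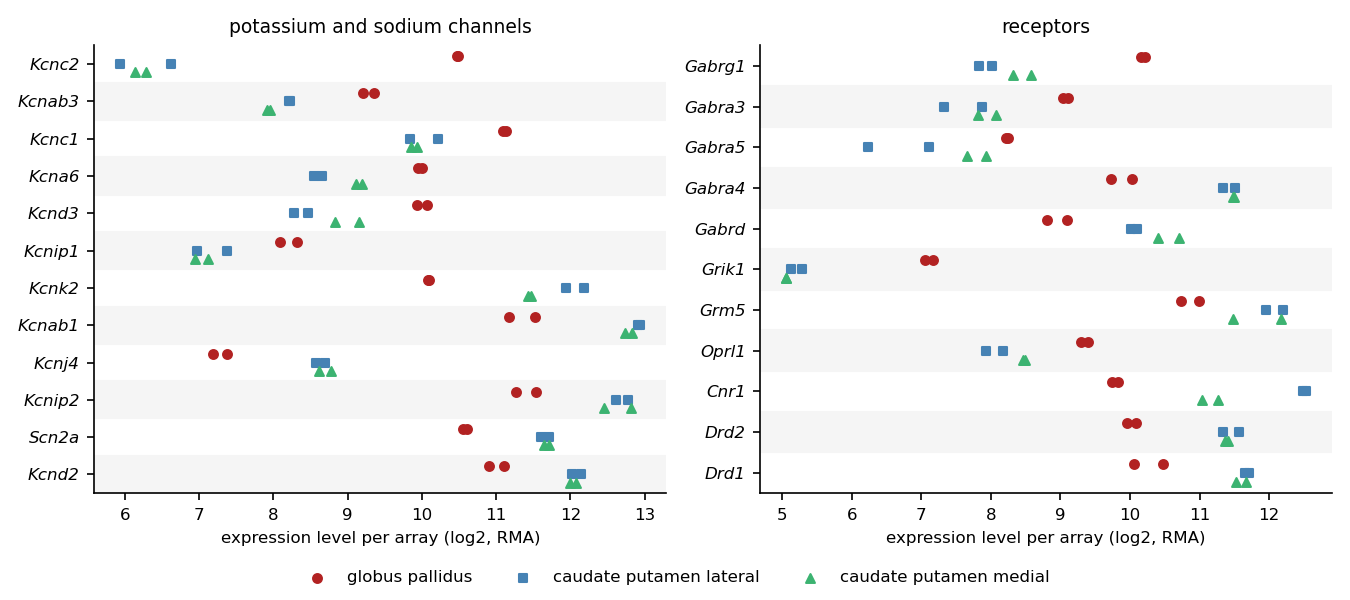
Expression level (log2, horizontal axis) of the called potassium and sodium channels and of called receptors, with 1 point per array (red circles globus pallidus, blue squares lateral and green triangles medial caudate putamen). Kcnab3, Kcnd3 and Kcnip1 have the red points to the right, and their relatives Kcnab1, Kcnd2 and Kcnip2 have them to the left.

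GABA-A receptor subunits also differed in both directions, with 3 of 12 higher, 2 lower and a median of -0.10. Gabrg1 measured 10.16 and 10.21 against 7.83 and 8.01 laterally and 8.32 and 8.58 medially (2.00 ± 0.15, 4.00-fold, adjusted p = 4.64e-17). Gabra3 measured 9.04 and 9.11 against 7.32 to 8.08 (1.30 ± 0.15), with a second probe set at 0.69 and a mean just under 2-fold (0.99). Gabra5 was at 8.22 and 8.25 against 6.23 and 7.11 laterally and 7.65 and 7.93 medially, a call (1.00 ± 0.19) that rests on the lateral part (1.56 against it, 0.45 against the medial part) and was lost without globus pallidus replicate 2 (0.99), lateral replicate 1 (0.78) or medial replicate 1 (0.93). The lower subunits were Gabra4, with 9.73 and 10.03 against 11.33 to 11.51 (-1.58 ± 0.17), and Gabrd, with 8.81 and 9.10 against 10.02 to 10.70 (-1.35 ± 0.19). The second probe set of Gabrd differed by -0.24, and the mean of both was not called (-0.80).

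Of 21 glutamate receptor genes 1 was higher and 1 lower, against 2.15% and 1.77% of all genes, with a median of -0.17. The kainate receptor Grik1 measured 7.17 and 7.06 against 5.06 to 5.29 (1.99 ± 0.15), all below the median of all values (8.1), where an array cannot tell a low level from background. Its second probe set differed by 0.23. The metabotropic receptor Grm5 was lower (10.74 and 10.99 against 11.48 to 12.20, -1.09 ± 0.18), a call lost without globus pallidus replicate 1 (-0.96) or medial replicate 2 (-0.92) and against the medial part alone (-0.96). Its other probe set differed by 0.19, and the mean of both was not called (-0.45). The AMPA receptor subunits Gria2 (-0.64 ± 0.13) and Gria4 (0.43 ± 0.12) had opposite signs and were under 2-fold. Of 18 receptors for peptides, dopamine, adenosine, acetylcholine and cannabinoids 1 was higher and 3 lower, with a median of -0.23. The lower ones were Cnr1, Drd1 and Drd2, and the higher one was Oprl1, the nociceptin receptor (9.39 and 9.29 against 7.93 to 8.49, 1.08 ± 0.11), though under 2-fold against the medial part alone (0.87). The mu opioid receptor Oprm1 differed by -0.02 ± 0.08 and the muscarinic receptor Chrm1 by -0.78 ± 0.12.

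Among 15 neuropeptides 1 was higher and 3 were lower, with a median of -0.01. The higher one was Tac2, with 8.87 and 8.77 against 6.14 to 6.63 (2.41 ± 0.22), and the lower ones were Penk, Tac1 and Sst, somatostatin. Sst marks a class of striatal interneurons and measured 10.23 and 10.50 against 11.37 and 11.26 laterally and 12.03 and 11.33 medially (-1.13 ± 0.25, adjusted p = 0.00027). The call was lost without medial replicate 1 (-0.95) or globus pallidus replicate 1 (-1.0), and against the lateral part alone (-0.95). Npy, found in the same interneurons, was below all caudate putamen arrays but under 2-fold (-0.77 ± 0.18), and Nos1, also made by these cells, differed by -0.11 ± 0.10. Of 9 interneuron genes Pvalb was higher, Sst lower, and the median was -0.11. The Sst promoter (RefSeq, GRCm38.p6, chr16:23890795-23891094, minus strand) is shown because the gene is a textbook target of cyclic AMP through its CRE, here in capitals 48 bases before the start:
Sst: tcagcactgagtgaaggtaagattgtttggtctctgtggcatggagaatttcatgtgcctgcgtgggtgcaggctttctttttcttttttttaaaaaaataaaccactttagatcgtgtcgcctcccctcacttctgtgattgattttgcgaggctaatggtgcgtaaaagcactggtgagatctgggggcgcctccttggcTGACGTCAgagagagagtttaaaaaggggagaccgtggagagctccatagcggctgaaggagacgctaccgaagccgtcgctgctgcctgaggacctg

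Neurofilaments stiffen large axons. Of 5 neurofilament genes 2 were higher and none lower (median 0.82). Nefh measured 10.97 and 11.03 against 8.23 to 8.75. The light chain Nefl measured 12.00 on both globus pallidus arrays against 11.33 and 11.25 laterally and 10.43 and 10.50 medially (1.13 ± 0.11), so that the difference was 0.71 against the lateral and 1.54 against the medial part. The medium chain Nefm (11.08 and 11.28) overlapped with the lateral arrays (11.12 and 11.05) and differed by 1.54 from the medial part. Among 15 calcium-binding proteins 3 were higher and 2 lower, with a median of 0.29. Vsnl1, visinin-like protein 1, measured 11.55 and 11.61 against 9.57 to 10.07 (1.73 ± 0.14), while Necab2, a neuronal calcium-binding protein, measured 10.48 and 10.70 against 11.56 to 11.96 (-1.11 ± 0.11). Against the lateral part alone Necab2 was under 2-fold (-0.98). Calb1, calbindin, was not called (-0.61 ± 0.30).

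Components of the perineuronal net, the matrix around fast-spiking neurons, gave 2 higher and 1 lower of 15, with a median of 0.10. Hapln4, the link protein Bral2, measured 9.95 and 9.77 against 7.74 to 8.19 (1.84 ± 0.11, 3.57-fold). Adamts4, a protease that cuts the core proteins of the net, measured 9.42 and 9.57 against 8.22 to 8.48 (1.16 ± 0.13), with its probe sets at 0.30 and 1.16 and their mean not called (0.73). The core protein Ncan, neurocan, was lower, with 9.63 and 9.67 against 10.31 to 11.50 (-1.32 ± 0.24). Its 3 probe sets ranged from -1.32 to -0.25, and it was not called on their mean (-0.65) or against the medial part alone (-0.94). On averaged probe sets 1 gene of this list was higher and 0 were lower. Acan, aggrecan, measured 6.93 and 6.84 against 6.86 to 7.05 (-0.08 ± 0.10), and Bcan, brevican, differed by 0.40 ± 0.09. All values of Acan lie below the median of all values (8.1).

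The human globus pallidus is known for its iron, and mutations in several genes give neurodegeneration with brain iron accumulation. Of 15 measured genes of iron handling and of that disease group 2 were higher and none was lower, with a median of 0.14. Fa2h, a fatty acid hydroxylase of myelin, measured 10.66 and 10.69 against 9.29 to 9.50 (1.29 ± 0.13). Heph, a copper ferroxidase, measured 6.38 and 6.49 against 4.93 to 5.40 (1.29 ± 0.19), below the median of all values. The ferritin heavy chain Fth1 (0.32 ± 0.06), the transferrin receptor Tfrc (0.18 ± 0.13), ferroportin Slc40a1 (0.11 ± 0.12) and Pank2 (-0.41 ± 0.08) were not called.

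Many glial genes were higher. Of 18 measured oligodendrocyte and myelin genes 13 were higher, against 2.15% of all genes, none was lower and the median was 1.21. Ermn, a cytoskeletal protein of myelinating cells, measured 10.98 and 11.18 against 9.14 and 9.12 laterally and 9.52 and 9.64 medially (1.72 ± 0.18). Mog measured 9.50 and 9.67 against 7.78 to 8.13 (1.63 ± 0.21), and Mal measured 12.57 and 12.69 against 10.66 to 11.48 (1.57 ± 0.21). The abundant Mbp differed by 0.19 ± 0.14, but its level of 14.16 and 14.20 lies near the top of the scale, and its 8 probe sets ranged from -0.70 to 1.44. The mean level of the list was 10.96 and 11.01 on the globus pallidus arrays and 9.64 to 10.05 on the caudate putamen arrays. Against the medial part alone 9 of the 18 were called. Of 6 genes of oligodendrocyte precursors 2 were higher (median 0.71), among them Lhfpl3 (1.69 ± 0.13), while Pdgfra (0.79 ± 0.12) and Cspg4 (0.12 ± 0.09) were not called.

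Of 15 astrocyte genes 7 were higher, against 2.15% of all genes, none was lower and the median was 0.85. Gfap, the astrocytic intermediate filament, measured 10.99 and 10.60 against 8.45 to 8.71 (2.27 ± 0.19, 4.82-fold), and its other probe sets reached 3.53. The gap junction gene Gjb6 measured 10.43 and 10.46 against 8.40 to 9.06 (1.69 ± 0.14), and the water channel Aqp4 was higher (1.21 ± 0.20). Other astrocyte genes were not called: Aldh1l1 differed by 0.74 ± 0.10, the glutamate transporters Slc1a3 by 0.32 ± 0.13 and Slc1a2 by -0.45 ± 0.09, and Id4 by -0.68 ± 0.15. Slc1a2 measured 12.85 and 12.96 against 13.26 to 13.41 on the chosen probe set, without overlap. Its 5 probe sets ranged from -0.45 to 0.95, with a mean of 0.15, so its direction depends on the probe set. The list's mean level was 11.21 and 11.23 against 10.18 to 10.27. These glial differences go along with all neuronal differences above, and their part in them was not tested.

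**Figure D4:**
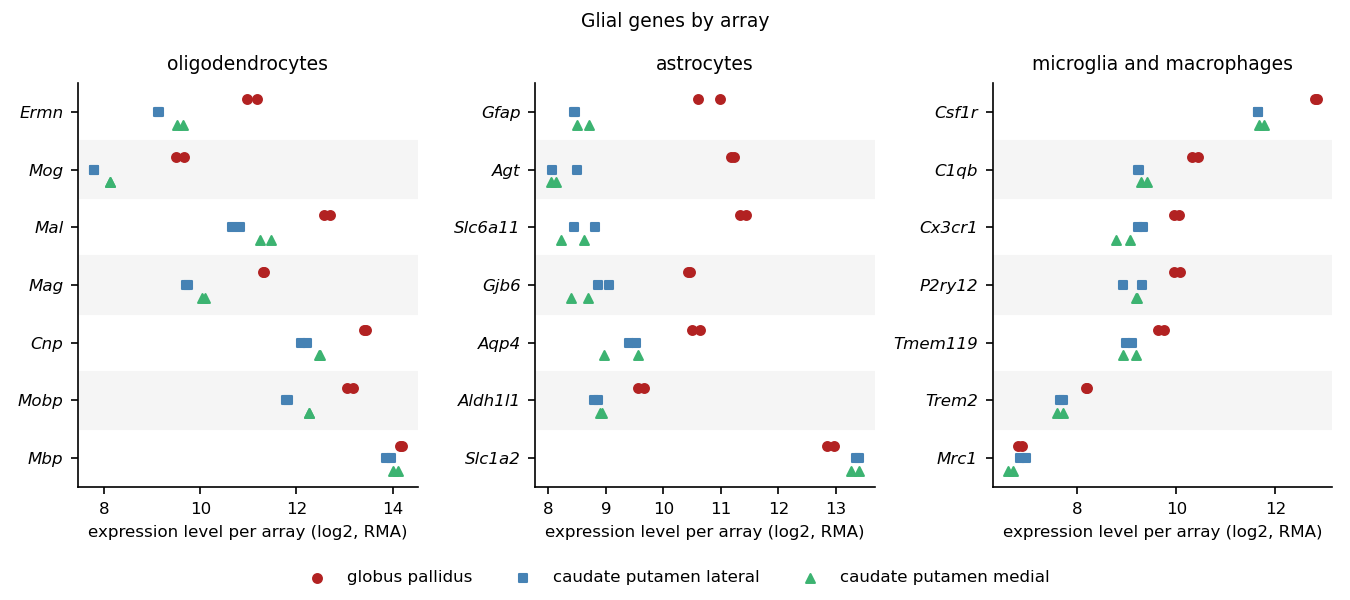
Expression level (log2, horizontal axis) of genes of oligodendrocytes, astrocytes, and microglia and macrophages, with 1 point per array (red circles globus pallidus, blue squares lateral and green triangles medial caudate putamen). The red points lie to the right except for Slc1a2, where they lie to the left on the chosen probe set, and Mrc1, where they overlap with the lateral arrays.

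Microglial genes were higher by smaller amounts. Of 12 genes 2 were higher by 2-fold or more, against 2.15% of all genes, and 10 at any fold, against 15.8%. None was lower, and the median was 0.77. Csf1r, the receptor on which microglia depend, measured 12.79 and 12.83 against 11.64 to 11.76 (1.13 ± 0.11, adjusted p = 9.06e-14), with a mean over its probe sets just under 2-fold (0.95), and the complement gene C1qb measured 10.32 and 10.43 against 9.23 to 9.40 (1.08 ± 0.15). Cx3cr1 (0.91 ± 0.17), P2ry12 (0.87 ± 0.13), Tmem119 (0.63 ± 0.09) and Trem2 (0.51 ± 0.10) were above all caudate putamen arrays and under 2-fold. The globus pallidus had the highest mean of the 52 regions for 4 of the 12 genes (Csf1r, P2ry12, Cx3cr1 and Trem2) and ranked 1 to 3 for 9, against 0.89% and 3.45% of all genes. The substantia nigra came close for Cx3cr1 (9.91 against 10.01) and Trem2 (8.12 against 8.19). It was further below for Csf1r (12.35 against 12.81) and P2ry12 (9.57 against 10.02). Mrc1 and Cd163, which mark perivascular macrophages, differed by 0.07 ± 0.17 and -0.16 ± 0.11.

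Genes on which both globus pallidus arrays exceeded all other arrays of the atlas numbered 15 (0.0824% of genes). The 6 with the widest gap to the next region were Gpr174 (0.87), Siglech (0.48), Gbx1 (0.46), Csf1r (0.46), Unc13c (0.28) and Tbc1d9b (0.23). Gpr174, a lysophosphatidylserine receptor of immune cells, measured 7.05 and 7.25 against 5.84 to 6.07 in the caudate putamen, all below the median of all values, and the mean of its probe sets was not called (0.94). Siglech, a microglial lectin, measured 8.98 and 8.97 against 8.08 to 8.38, and the substantia nigra came next at 8.50. The substantia nigra was also next for Csf1r. Unc13c, a presynaptic priming protein, measured 12.05 and 12.20 against 10.33 and 10.38 laterally and 11.27 and 11.00 medially (1.38 ± 0.17), so that the difference from the medial part (0.99) was under 2-fold. Tbc1d9b stood at the 2-fold line (1.00 ± 0.10), and its 3 probe sets ranged from -0.29 to 1.00. It lost its call without globus pallidus replicate 2 (0.98), lateral replicate 1 (0.93) or medial replicate 1 (0.97). Against the medial part alone it was not called either (0.96).

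Among genes of cell types of neighbouring tissue, on the chosen probe sets, none was called for 11 of endothelium and pericytes (median 0.04), 9 of ependyma (0.09), 9 of choroid plexus (0.29), 9 of cortical projection neurons (-0.03), 8 hypothalamic hormones (0.07) and 2 erythroid genes (-0.01). With no overlap between arrays, 5 choroid plexus genes and 3 hormones were higher, against 21.1% of all genes. So were 3 genes of endothelium and pericytes and 1 of ependyma. Lower with no overlap were 1 choroid plexus gene and 1 of cortical neurons, against 17.7%. The hormone gene Avp measured 8.18 and 7.97 against 7.10 to 7.29 and was under 2-fold (0.85 ± 0.18). The choroid plexus gene Ttr measured 9.88 and 9.82 against 8.95 to 9.11, with an SE of 0.60. The fit draws that SE from the replicate spread of all 52 regions. Within these arrays the SD of Ttr was 0.04 in the globus pallidus and 0.08 in the caudate putamen. The 4 probe sets of Ttr ranged from 0.83 to 2.74, and their mean of 2.05 was called higher. Of 10 meningeal genes Ptgds was higher (1.01 ± 0.18). The call was lost without globus pallidus replicate 2 (0.92), lateral replicate 1 (0.97) or medial replicate 1 (0.99). Against the medial part alone Ptgds was not called either (0.97). Of 8 thalamic genes Slc17a6, the vesicular glutamate transporter 2, was higher, with 8.20 and 7.38 against 5.52 to 5.83 (2.11 ± 0.21). The median of the thalamic list was 0.49, 6 of the 8 genes were higher at any fold, against 15.8% of all genes, and 6 were without overlap, against 21.1%. Among them Tcf7l2, a factor of thalamic neurons, measured 8.19 and 7.93 against 7.03 to 7.26 (0.89 ± 0.21, adjusted p = 0.000489) and was under 2-fold. The SD of Slc17a6 between the 2 globus pallidus arrays was 0.58, where the median gene had 0.0713, and the globus pallidus ranked 44 of 52 for it. The cortical transporter Slc17a7 differed by 0.05 ± 0.23. Of 8 dopamine neuron genes Slc18a2, the vesicular monoamine transporter, was lower (5.99 and 5.87 against 6.84 to 8.06, -1.38 ± 0.32), below the median of all values and not called against the medial part alone (-0.98), and Th differed by -0.14 ± 0.20. Neither Ptgds nor Slc18a2 was called with the 18S covariate.

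Of 14 immediate early genes, which neurons induce when active, 6 were lower, against 1.77% of all genes. None was higher, and the median was -0.79. Junb measured 7.02 and 7.46 against 8.93 to 9.30, Egr1 measured 10.97 and 11.33 against 12.22 to 12.80 (-1.41 ± 0.15), and Egr2 measured 6.85 and 6.71 against 8.16 to 8.35 (-1.47 ± 0.18). Nr4a1 (-1.40 ± 0.17), Npas4 (-1.19 ± 0.22) and Arc (-1.01 ± 0.22) were lower too. All values of Npas4 lie below the median of all values. Its call was lost without lateral replicate 2 (-0.93) and against the lateral part alone (-0.96). The call of Arc was lost without globus pallidus replicate 1 (-0.86), lateral replicate 2 (-0.96) or medial replicate 2 (-0.98). Against the medial part alone Arc was not called either (-0.82). Fos measured 8.18 and 8.75 against 8.07 to 8.87 (0.01 ± 0.23), and Jun differed the other way (0.45 ± 0.14). Globus pallidus replicate 1 read below replicate 2 for Junb, Egr1, Nr4a1, Npas4, Arc and Fos, and above it for Egr2.

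**Figure D5:**
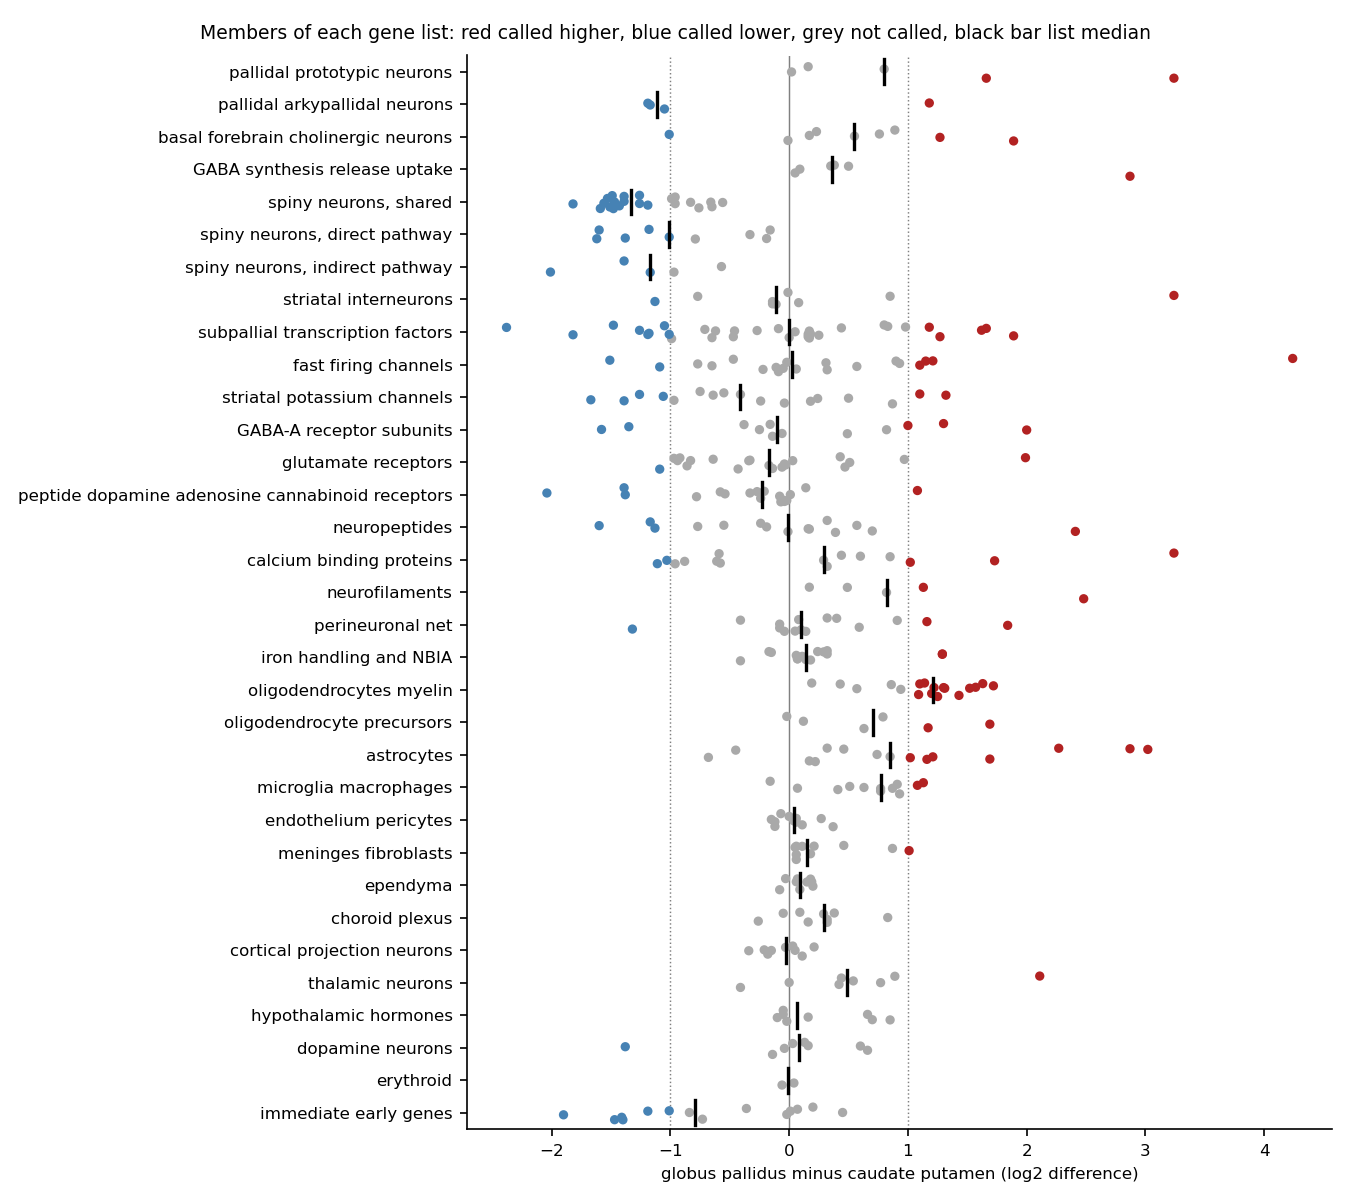
Difference between globus pallidus and caudate putamen (log2, horizontal axis) for each measured member of the 33 gene lists. Red points are called higher, blue points called lower and grey points not called, black bars are list medians, and dotted lines mark 2-fold. The medians lie at -1.33 for the shared spiny neuron genes and at 1.21 for oligodendrocytes and myelin.

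Between the 2 parts of the caudate putamen 12 genes (0.066%) were higher laterally and 43 (0.236%) medially. Against the lateral part alone 511 genes (2.81%) were higher in the globus pallidus and 303 (1.67%) lower, and against the medial part alone 354 (1.95%) were higher and 380 (2.09%) lower. Of the genes named above, Gprin3 (1.24), Rxrg (1.06), Rerg (1.36), Cnr1 (1.35) and Nefm (1.45) were higher in the lateral than in the medial part, and Tmem255a (-1.05) and Gabra5 (-1.12) were higher in the medial part. Gprin3, Rxrg, Rerg and Cnr1 were lower in the globus pallidus than in either part, so that their order was lateral, medial, globus pallidus. Both comparisons share the globus pallidus arrays.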

How the data were processed

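Each sample is 1 Affymetrix mouse array. Per the submitters' processing notes the authors summarised probe sets with RMA, which gives log2 values; no version is given in the sources used here. These deposited values were not normalized again. Precision is limited by the number of arrays, 2 per region. Each of 18193 genes is represented by its probe set with the highest mean among those with 1 gene symbol (34945 of 45101 probe sets); 9010 genes have several.

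limma 3.58.1 (R 4.3.3) fitted a mean per region to all 104 arrays (52 residual df, prior df 7.87) with two-sided tests, and the fit was tested on simulated data. The members and the 33 lists (399 genes, 357 measured) were chosen with earlier results of these data known, so no list was tested as a set. Named genes are the 14 called genes that differ most in either direction, if the higher group reaches the median of all values (8.1), the arrays do not overlap and the symbol is not provisional; members of the lists; and the 6 genes highest in the globus pallidus by the gap to the next region. Alternatives changed the reference, arrays, scaling, filter, probe sets, thresholds, variance model, replicate block, control covariates and left-out replicate.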

Additional observations from a re-analysis of the deposited data

Results flagged for a closer look

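For 7 named genes the lateral and medial parts of the caudate putamen differed by 2-fold or more in the limma fit, so that the difference from the globus pallidus depends on the part. Lateral minus medial was 1.24 for Gprin3, 1.06 for Rxrg, 1.36 for Rerg, 1.35 for Cnr1 and 1.45 for Nefm, and -1.05 for Tmem255a and -1.12 for Gabra5. Nefm was near the lateral part (0.09) and above the medial part (1.54), and Gabra5 was 1.56 above the lateral and 0.45 above the medial part.

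For 10 of 178 named genes (5.62%) 1 of the 4 caudate putamen arrays stood apart from the other 3, where chance alone flags about 1 in 20 groups. Medial replicate 1 read low for Ngfr (7.59), Hpca (13.15), Avp (7.10) and Egr3 (8.53), and high for Rgs9 (13.09) and Sst (12.03). Lateral replicate 2 read high for Tac1 (13.43) and Foxj1 (6.31) and low for Sox10 (9.66). Lateral replicate 1 read low for Npas4 (6.38). Of these genes Sst lost its call when the array that stood apart was left out.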

How the results depend on the processing

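The counts of called genes kept within 1.5 times of 391 higher and 322 lower under other references, scalings, filters, probe set rules, variance models and control covariates. They moved under a test against 2-fold (treat), which called 121 higher and 60 lower, and without a fold threshold (2879 and 2634). Leaving out 1 array gave 392 to 415 higher and 252 to 379 lower. Averaging a gene's probe sets gave 265 and 249. Of 107 called named genes 48 were called in all 21 settings. Under treat 58 lost their call, on averaged probe sets 22 and with the 18S covariate 8. Against the medial part alone 15 lost it, against the lateral part alone 5, and without some array 13. With the 3′ to 5′ control ratios as covariates 7 of the called named genes lost their call. Of the 28 largest differences 27 kept their call in all settings but treat, the exception being Gas7 on averaged probe sets. With the replicate number as a block the counts were 391 and 322 over all arrays, and 390 and 322 on the 6 arrays alone. The labels tie no 2 arrays of the same number. The correlations of replicate differences were 0.1079 (globus pallidus with lateral), -0.2553 (with medial) and 0.2091 (lateral with medial). Whether arrays of the same number share more than the number was not tested. Genes near the bottom of the scale, such as Grik1, Heph, Gpr174 and Slc18a2, have no detection call here.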
